A study of Mus musculus with 10 samples.

Results

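PVT5 neurons of the mouse paraventricular thalamus (PVT) were taken as the nuclei in which the score of *Drd3*, *Slc22a3* and *1700047F07Rik* exceeded the scores of 4 other PVT marker sets, and 683 of the 20503 deposited nuclei met the rule. The rule started from 10410 nuclei in clusters that the deposited names call neurons. It kept the 10307 with more than 1000 genes, of which 4674 had at least 2 UMIs (unique molecular identifiers, each counting 1 captured RNA molecule) of *C1ql3*, and then removed 460 with a UMI of *Gad2* and 597 with a UMI of *Nwd2*, 67 of them with both. The 3684 gated nuclei that remained were scored for 5 sets by the mean of log1p(UMIs per 10000), z-scored over these nuclei, and each went to its highest set: 905 to PVT1 (*Drd2*, *Esr1*, *Egflam*, *Egfl6*), 714 to PVT2 (*Col12a1*, *Pde3a*, *St14*, *Dgkk*), 667 to PVT3 (*Cadps2*, *Glis3*, *Gypc*, *Col6a1*), 715 to PVT4 (*Npsr1*, *Bmper*, *Fmo1*, *Kirrel*) and 683 to PVT5. The members were thus chosen by the measured counts of 22 genes, whose levels in these members are given as a description and without a test; 3 of them are tested only in nuclei assigned without the gene in question.

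The nuclei came from tissue punches along the whole antero-posterior PVT and the regions next to it, taken from C57BL/6J mice aged 12 weeks, with several mice pooled for each library. Single nuclei were captured in droplets, and 10 libraries were made, 6 labelled female and 4 with no sex in their labels that the deposited metadata give as male. Male libraries hold from 875 to 7213 nuclei and female libraries from 1049 to 1615. Sex goes together with depth per nucleus and with the gene symbols counted, which cannot be told apart. Since each library pools mice, p-values do not measure the spread between animals. For the share of PVT5 they measure the spread between libraries. In the tests of gene levels, subtypes are compared within each library. There p-values measure how these differences vary between libraries, taken over all sums of the fit.

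The PVT is a midline thalamic nucleus of excitatory projection neurons that receives peptidergic and monoaminergic input and projects to the nucleus accumbens, the amygdala and the prefrontal cortex. *Drd3* encodes the D3 dopamine receptor, an inhibitory G-protein-coupled receptor, and *Slc22a3* encodes an organic cation transporter that takes up monoamines outside the classical reuptake sites. *1700047F07Rik* is a long noncoding RNA. In GENCODE M21 (GRCm38, mm10) the protein-coding *Drd3* lies on chromosome 16 from 43754026 to 43822932 on the plus strand, the protein-coding *Slc22a3* on chromosome 17 from 12418960 to 12507704 on the minus strand, and *1700047F07Rik*, annotated as a lincRNA, on chromosome 4 from 107689701 to 107758985 on the plus strand.

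The members carried the identity that their gate implies. Levels are given as CPM, the UMIs of a gene summed over the nuclei of a library and scaled to the same total in every library. On this scale the neuronal genes *Rbfox3*, *Slc17a6*, *Snap25* and *Syt1* added up to 2823 ± 158 (SD, n = 10 libraries), and after each nucleus was thinned to 2000 UMIs, *Slc17a6*, the vesicular glutamate transporter of thalamic neurons, was counted in 65.7% ± 8.28 of members (98.8% ± 1.52 unthinned). The same shares were 18.6% ± 7.34 and 21.7% ± 10.5 in oligodendrocytes, which should lack the transcript and show the level of free RNA, with median depths of 13908 UMIs in members and 2321 in oligodendrocytes. Of 4 markers of GABAergic neurons, *Gad2* was at 0 by the rule and the remaining 3 summed to 1.64 ± 2.03 CPM, led by *Gad1* with 8 UMIs in all members. *Adarb2*, a marker of the neighbouring mediodorsal thalamus, stood at 63.9 ± 63.5 CPM, with 226 CPM in female replicate 3 and 101 CPM in male replicate 4 against 9.91 CPM in female replicate 2, and its mean in the other subtypes ran from 45.5 to 144 CPM. Its part in the results below was not tested beyond the fits within single deposited clusters. Oligodendrocyte markers summed to 44.5 ± 28.0 CPM (6 of 6 genes counted), astrocyte markers to 43.4 ± 13.7 CPM (8 of 8, *Slc1a3* the most abundant) and microglia markers to 61.7 ± 16.9 CPM (5 of 5, *P2ry12*). In the other subtypes these means ran from 40.3 to 47.8, from 43.6 to 71.5 and from 70.2 to 99.0 CPM, and their part in the results was not tested.

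*Drd3* was counted in most members and the other markers in fewer. UMIs of *Drd3* were present in 533 of 683 members (78.0%), those of *Slc22a3* in 268 (39.2%) and those of *1700047F07Rik* in 265 (38.8%). All 3 genes were counted in 81 members, 2 of them in 221 and only 1 in 381, and *Drd3* alone was the most frequent pattern with 252 members (36.9%). In 202 members (29.6%) the 3 genes had a single UMI between them, the smallest number a member can have. Members with all 3 genes had a median of 20087 UMIs, and members with *Drd3* alone 12429: the number of markers counted moved with depth. The rule did not make *Drd3* exclusive to these nuclei: of the 1134 gated nuclei with a *Drd3* UMI, 533 (47.0%) were members, 194 went to PVT3, 163 to PVT1, 131 to PVT4 and 113 to PVT2.

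The genes by which the members were chosen stood apart in level as well. *Drd3* ranged from 84.5 to 169 CPM over the 10 libraries in PVT5, with a median of 125 and a mean of 129 ± 27.6 (SD), against means of 39.3 ± 12.6 in PVT3, 19.2 ± 8.13 in PVT4, 19.0 ± 9.86 in PVT1 and 15.9 ± 7.36 in PVT2. *Slc22a3* ranged from 30.6 to 63.2 CPM (median 45.6), with at most 8.10 ± 6.77 as the mean of another subtype (PVT2). *1700047F07Rik* ranged from 32.5 to 78.8 CPM (median 60.0), with at most 6.25 ± 4.35 elsewhere (PVT2). The lowest PVT5 library was above the highest library of every other subtype for each of these genes, and PVT3 was the subtype next to PVT5 in *Drd3*. The highest 4 *Drd3* values among PVT5 sums all came from female libraries. Members there had a median of 8441.5 UMIs, against 16118 in male libraries, and the part of depth in these values was not tested. After thinning to 2000 UMIs, *Drd3* was counted in 23.1% ± 4.98 of members (77.5% ± 4.49 unthinned), compared with 6.59% ± 1.93 in PVT3 and 0.177% ± 0.231 in oligodendrocytes. *Slc22a3* was counted in 7.89% ± 1.96 of thinned members and 0.241% ± 0.376 of thinned oligodendrocytes, and *1700047F07Rik* in 9.86% ± 2.53 and 0.574% ± 1.04.

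**Figure D1:**
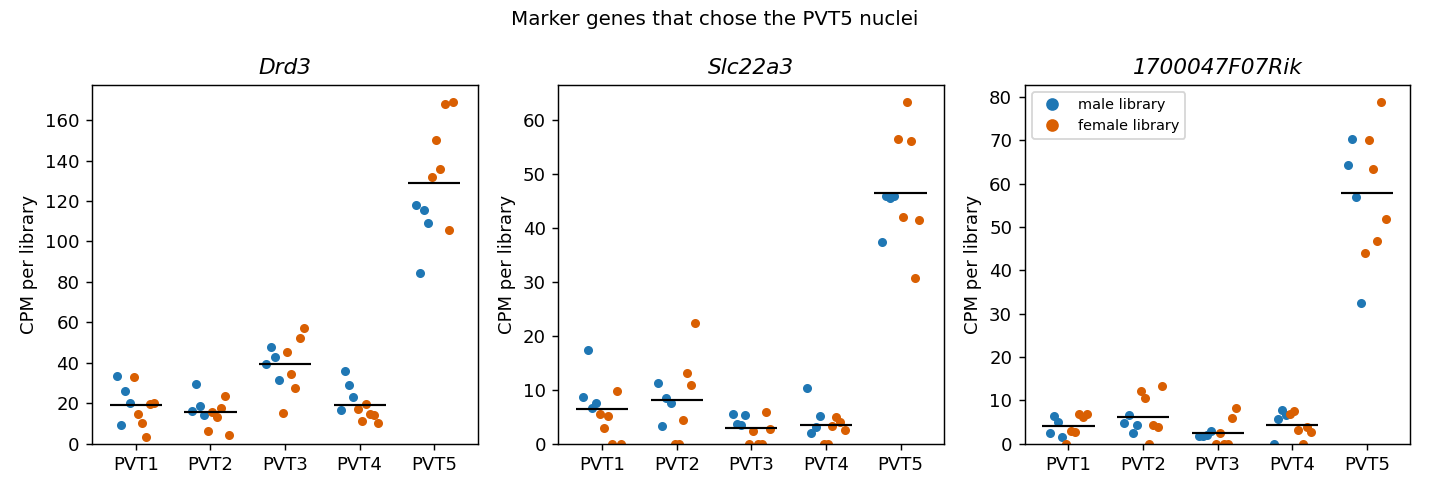
Levels of the genes that chose the PVT5 nuclei, in CPM of the summed UMIs (y axis, linear from 0), for each of 5 subtypes (x axis). Each point is 1 of 10 libraries, blue male and orange female, and the black line is the mean; in PVT5 *Drd3* lies between 84.5 and 169 CPM, above every library of the other subtypes.

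The marker genes of the other 4 subtypes, which the rule also used, had lower sums in PVT5 than in the subtype they mark. The PVT3 set summed to 169 ± 70.7 CPM in PVT5 and to 1973 ± 190.4 CPM in PVT3 (SD, n = 10 libraries). The PVT1 set summed to 56.0 ± 13.8 CPM in PVT5 and to 229 ± 39.9 CPM in PVT1. For the PVT2 set the sums were 46.2 ± 13.7 and 345 ± 69.1 CPM, and for the PVT4 set 14.7 ± 6.45 and 247 ± 83.1 CPM. The scores show how near members lay to the edge of the rule. The PVT5 score of members had a median of 1.26 z and the margin over the next set a median of 0.887 z, while 38 members (5.56%) had a margin under 0.1 z and 238 (34.8%) a margin under 0.5 z. The 5 members closest to the edge had margins from 0.000212 to 0.00953 z and between 1 and 3 UMIs of the 3 markers. The 5 nearest nuclei outside had margins from -0.000358 to -0.0095 z, carried between 1 and 4 marker UMIs, and went to PVT1 (2 nuclei), PVT2, PVT3 and PVT4. The set with the next highest score was PVT1 for 251 members (36.7%), PVT4 for 158, PVT3 for 141 and PVT2 for 133.

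Each marker was then left out in turn, the nuclei were assigned again without it, and its level was tested in the members that the remaining pair chose, which asks whether the 3 genes go together in the same nuclei. They did in every case, with edgeR's quasi-likelihood test on the sums of each library and subtype, and with Benjamini-Hochberg adjustment over all genes of the fit. In these fits *Slc22a3* and *1700047F07Rik* were below the filter on low counts that other genes had to pass, and were kept. Chosen by *Slc22a3* and *1700047F07Rik*, 508 nuclei carried *Drd3* at 76.5 ± 19.1 CPM against a mean of 38.0 in the other subtypes, which is 0.89 ± 0.10 higher on the log2 scale (SE, n = 10 libraries, adjusted p = 6.25e-12), and 51.4% of them had a *Drd3* UMI against 27.5% of the remaining gated nuclei. Chosen by *Drd3* and *1700047F07Rik*, 625 nuclei had *Slc22a3* at 27.0 ± 7.98 against 10.2 CPM (log2 fold change 1.43 ± 0.14, adjusted p = 2.6e-12). Chosen by *Drd3* and *Slc22a3*, 670 nuclei had *1700047F07Rik* at 35.7 ± 13.5 against 10.0 CPM (log2 fold change 2.04 ± 0.16, adjusted p = 3.34e-17). Each held-out gene was higher in PVT5 in 10 of 10 libraries. The smallest within-library gaps in CPM were *Slc22a3* in female replicate 2 (12.9 against 9.40 CPM) and *1700047F07Rik* in the same library (21.1 against 16.5 CPM), and the smallest ratio was that of *Drd3* in male replicate 2 (51.7 against 42.7 CPM). The study had picked the 3 genes as markers on these same libraries, so their joint rise is not independent of that choice. Within the deposited cluster Neurons (1) alone the held-out log2 fold changes were 0.99 ± 0.13 for *Drd3*, 0.92 ± 0.19 for *Slc22a3* and 1.87 ± 0.19 for *1700047F07Rik*, and within Neurons (2) they were 1.19 ± 0.18, 1.88 ± 0.29 and 2.01 ± 0.25, all with adjusted p of 0.000447 or less.

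**Figure D2:**
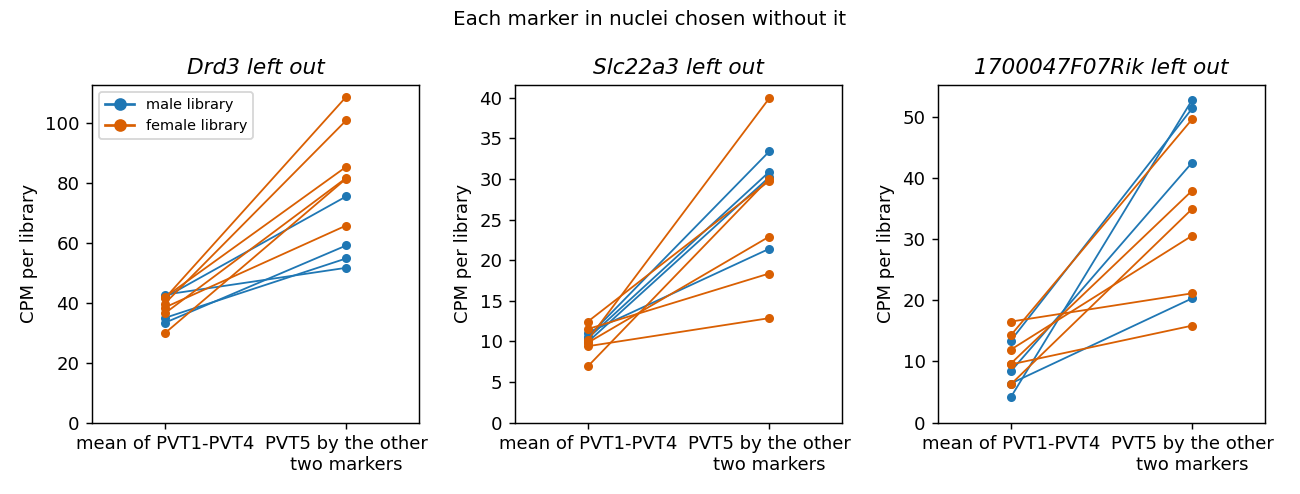
Level of each marker in CPM (y axis, linear from 0) in PVT5 nuclei chosen by the remaining pair of markers (right) and as the mean of PVT1 to PVT4 (left). Each line joins the values of 1 of 10 libraries, blue male and orange female, and every line rises from left to right.

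Over the whole series the markers had different territories. *Drd3* was highest in the deposited cluster Neurons (4), at 61.8 ± 10.9 CPM, followed by Neurons (2) at 45.2 ± 8.78 and Neurons (1) at 38.1 ± 4.32 CPM (n = 10 libraries each). The pair *Slc22a3* and *1700047F07Rik* was low in Neurons (4), at 4.51 ± 3.62 and 7.77 ± 1.81 CPM. *Slc22a3* reached 14.1 ± 2.86 CPM in Neurons (1) and 13.4 ± 4.04 in Neurons (2), and its highest means lay elsewhere, at 21.0 ± 6.90 CPM in Neurons (8) and 22.8 ± 11.8 CPM in oligodendrocyte precursors (n = 9). *1700047F07Rik* was highest in Neurons (2), at 23.0 ± 10.7 CPM, where its spread overlaps with the 15.3 ± 4.91 CPM of Neurons (1). *Drd3* had 13 UMIs in the 2462 oligodendrocyte nuclei and 0 in the 711 nuclei of Astrocytes (2).

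PVT5 had no cluster of its own among the deposited clusters. Of the members, 404 (59.2%) lay in Neurons (1), 208 (30.5%) in Neurons (2), 29 (4.25%) in Neurons (8), 27 (3.95%) in Neurons (4) and 5 each in Neurons (3), (5) and (7). The largest shares of the others were 76.9% of PVT1 and 82.6% of PVT2 in Neurons (1), 65.2% of PVT3 in Neurons (4) and 49.7% of PVT4 in Neurons (2). The share of PVT5 in Neurons (1) ranged from 45.0% in male replicate 2 to 70.0% in female replicate 1. Members in Neurons (2) and Neurons (1) had summed levels of *Drd3* of 113 and 109 CPM and of *Slc22a3* of 45.3 and 37.2 CPM, while *1700047F07Rik* stood at 74.8 and 41.6 CPM. The 27 members in Neurons (4) had *Drd3* at 223 CPM and *Slc22a3* and *1700047F07Rik* at 37.7 CPM each, with the PVT3 markers *Cadps2* at 708 and *Glis3* at 658 CPM. These sums pool the libraries and carry no replicate error.

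PVT5 made up 17.9% ± 2.52 (SD, n = 10 libraries) of the gated PVT nuclei. In male libraries the share was 16.5%, 22.6%, 21.1% and 17.8% for replicates 1 to 4, with 21, 40, 188 and 208 members. In female libraries it ran from 14.6% to 18.8% with a median of 17.6%, from between 20 and 70 members. The groups overlapped, and the male mean of 19.5% ± 2.84 and the female mean of 16.8% ± 1.76 differed by 2.68 percentage points with p = 0.114 in a two-sided exact permutation test over 210 splits, which can reach 0.00476. Without male replicate 1 the difference was 3.67 points (exact permutation p = 0.0476), and without male replicate 2 it was 1.65 points (exact permutation p = 0.262). The share was 11.2% ± 3.89 when nuclei were thinned to 3000 UMIs before the gate and the scores, with a male minus female difference of -0.595 points, and 8.41% ± 2.80 when members needed UMIs of at least 2 of the 3 markers. Members had a median of 16118 UMIs in male libraries, where the medians of the other subtypes lay between 14038.5 and 15178.5, and of 8441.5 in female libraries, where they lay between 6864 and 8708.5.

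**Figure D3:**
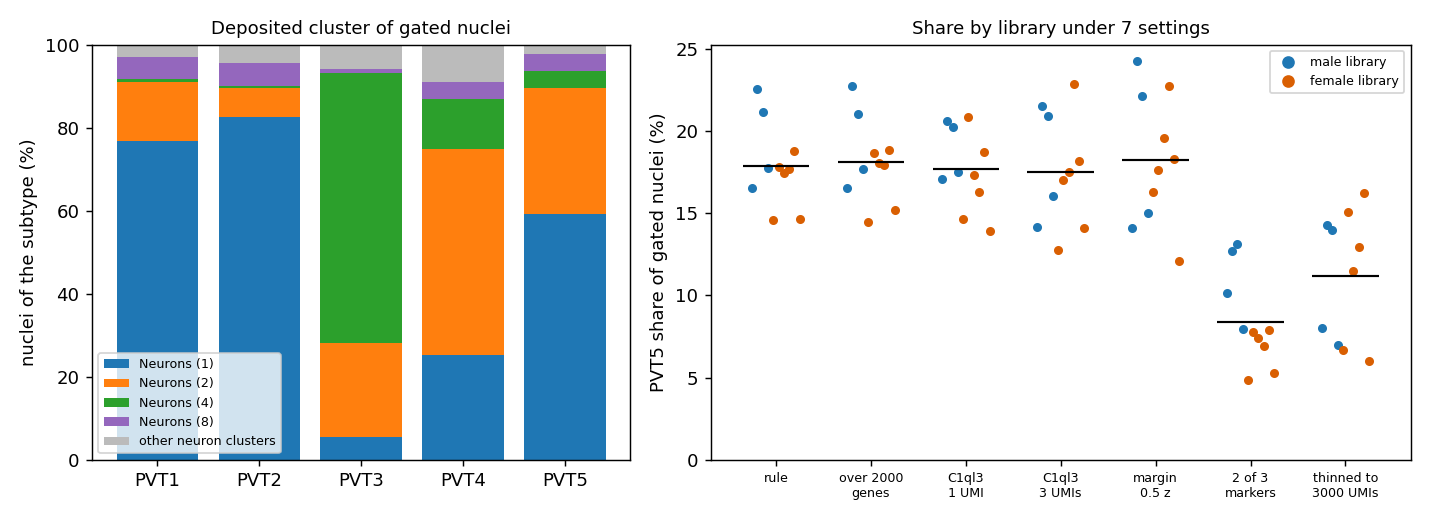
Left, the deposited clusters (colours) of the gated nuclei of each subtype, in percent of the subtype; PVT5 is divided between Neurons (1), 59.2%, and Neurons (2), 30.5%. Right, the PVT5 share of gated nuclei in percent (y axis from 0) for each of 10 libraries (blue male, orange female, line at the mean) under the rule and 6 other settings; the means stay near 17.9% except with 2 of 3 markers (8.41%) and after thinning (11.2%).

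For the rest of the transcriptome, UMIs were summed per library and subtype, which gave 50 sums of at least 10 nuclei, and PVT5 was compared with the mean of PVT1 to PVT4 on the log2 scale with the library as a block. Of 8416 genes tested outside the rule, 97 were higher in PVT5 (1.15% of those tested) and 103 lower (1.22%), where a call needed a log2 difference of more than 0.5 in either direction and an adjusted p below 0.05. The median log2 fold change of all genes was -0.01. Since the mean runs over 4 subtypes, a gene can be higher than the mean without being higher than each of them: of the 97, 84 were also higher than PVT3, 79 than PVT4, 29 than PVT2 and 23 than PVT1, and of the 103 lower genes 87 were lower than PVT4, 78 than PVT3, 47 than PVT2 and 28 than PVT1. In pairs, PVT5 was nearest to PVT1, with 102 genes higher (1.21%) and 86 lower (1.02%). Against PVT2 the counts were 168 (2%) and 203 (2.41%), against PVT4 208 (2.47%) and 207 (2.46%), and against PVT3 536 (6.37%) and 457 (5.43%). Among the 715 PVT4 nuclei, 256 had no UMI of a PVT4 marker, 254 of them with none of any set, and without such nuclei the counts against the mean were 104 and 106. When nuclei were thinned to 3000 UMIs for the gate and the scores alone, 169 of 1424 gated nuclei were members. The unthinned UMIs of the gated nuclei then gave 40 sums, and the counts were 25 and 14. Of the genes that could still be tested, 20 of 68 higher and 10 of 69 lower ones were called again. The opposite sign was found for 1 and 8 of these genes.

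Outside the rule, 4 genes were higher in PVT5 than in each of the other subtypes (0.0475% of the genes tested). *Tshz2*, a zinc finger homeobox transcription factor of the teashirt family, ranged from 248 to 468 CPM in PVT5 with a median of 313, and the mean of the other subtypes ranged from 135 to 219.8. The difference was 0.89 ± 0.06 on the log2 scale (adjusted p = 2.8e-20), and the lowest PVT5 library lay above the highest mean of the others. *Luzp2*, a leucine zipper protein, ranged from 508 to 777 CPM (median 732) against 377 to 516, and its difference was nearly the same against each subtype, from 0.62 against PVT3 to 0.67 against PVT2 on the log2 scale. *Palld*, which encodes the actin-binding protein palladin, ranged from 19.6 to 58.7 CPM (median 29.2) against 9.88 to 28.2 (log2 fold change 0.98 ± 0.16, adjusted p = 2.71e-06). *Megf11*, a transmembrane protein with EGF-like repeats, ranged from 21.0 to 82.8 CPM (median 34.4) against 9.87 to 28.5 (0.92 ± 0.14, adjusted p = 6.88e-07). The PVT5 and comparison ranges of *Luzp2*, *Palld* and *Megf11* overlap between libraries, and within each of the 10 libraries all 4 genes lay above the average CPM of PVT1 to PVT4.

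Conversely, 5 genes were lower in PVT5 than in each of the other subtypes (0.0594% of those tested). *Mgat4c*, a glycosyltransferase of the N-glycan branching family, had the largest difference of these: it ranged from 60.7 to 326 CPM in PVT5 (median 151) against 345 to 682 as the mean of the others, a difference of -1.54 ± 0.11 on the log2 scale (adjusted p = 1.78e-18). No PVT5 library reached the lowest mean of the others. The difference was -0.57 ± 0.14 against PVT1 and between -1.72 and -1.96 against the remaining subtypes. The highest PVT5 value of *Mgat4c* came from female replicate 3, the library with the most *Adarb2* among the PVT5 sums, though not among those of the other subtypes. *Plcl1*, a catalytically inactive relative of phospholipase C, differed by -1.03 ± 0.10 on the log2 scale (adjusted p = 4.35e-13) and was lower in 9 of 10 libraries, with 9.34 to 94.1 CPM in PVT5 (median 37.1) against 61.7 to 134. *Me3* ranged from 11.5 to 41.1 CPM (median 27.7) against 28.4 to 56.7, and both ranges overlap. *Me3*, the mitochondrial malic enzyme, had -0.94 ± 0.11 (adjusted p = 5.34e-10), the lincRNA *A330008L17Rik* -1.29 ± 0.20 (adjusted p = 7.32e-07) and *Cntn5*, a contactin cell adhesion molecule, -0.62 ± 0.07 (adjusted p = 6.5e-10). Compared by CPM with the mean of the others, *Me3* and *A330008L17Rik* were lower in 10 of 10 libraries and *Cntn5* in 8 of 10, while on the log2 scale, where the mean is one of logarithms, *Me3* was above it by 0.0823 in 1 female library. In GENCODE M21 (GRCm38) *Tshz2* lies on chromosome 2 from 169633013 to 170071816 (plus strand) and *Mgat4c* on chromosome 10 from 101681487 to 102391469 (plus strand), both protein-coding.

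**Figure D4:**
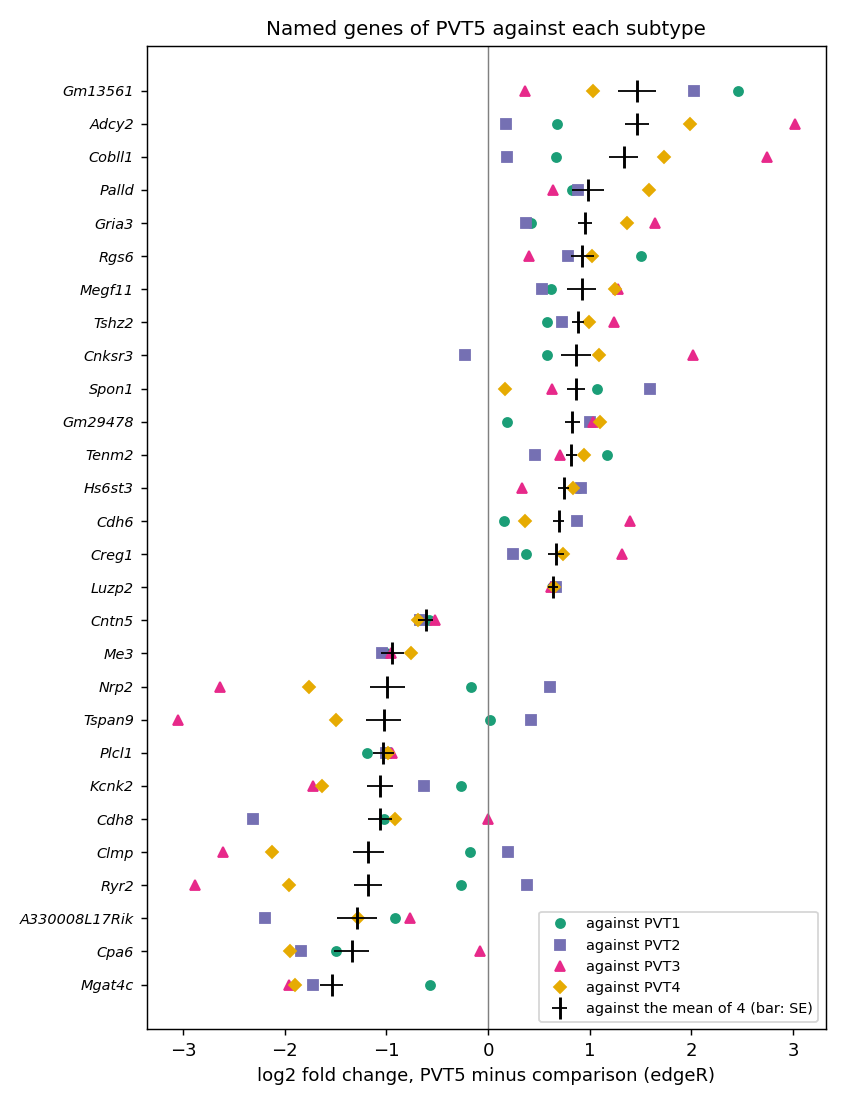
Log2 fold change (x axis) of PVT5 against each other subtype (coloured symbols) and against their mean (black tick, bar 1 SE) for the ranked rises and falls and the genes called against all 4 subtypes (y axis). *Luzp2*, *Tshz2*, *Palld* and *Megf11* lie right of 0 by more than 0.5 for all 4 subtypes, whereas *Ryr2* and *Clmp* lie left of 0 against PVT3 and PVT4 and right of 0 against PVT2.

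*Gria3*, an AMPA receptor subunit, stood at 298 ± 58.2 CPM in PVT5 and between 93.5 and 221 in the others (log2 fold change 0.95 ± 0.07, adjusted p = 2.83e-18). *Tenm2*, a teneurin of synaptic adhesion, ranged from 2925 to 5508 CPM against 1942 to 2694 as the mean of the others (0.82 ± 0.05, adjusted p = 2.4e-21), with no overlap with that mean. It was not among the genes higher than each other subtype. After thinning, it was counted in 91.0% ± 3.67 of members and 92.7% ± 2.69 of PVT2, against 79.2% in PVT1, 88.8% in PVT3 and 84.3% in PVT4. Within Neurons (1), sums pooled over libraries gave 3177 CPM in PVT5 and 2961 in PVT2. *Rgs6*, a regulator of G-protein signalling, stood at 80.1 ± 26.5 CPM and was 0.93 ± 0.11 higher on the log2 scale. The largest log2 fold changes among the named higher genes were those of *Gm13561*, an antisense RNA (1.47 ± 0.19), *Adcy2*, an adenylyl cyclase (1.47 ± 0.12) and *Cobll1* (1.33 ± 0.15). The mean hides unlike subtypes. *Gm13561* had 26.9 ± 10.8 CPM in PVT5 and 20.4 ± 12.4 in PVT3, a difference of 0.36 ± 0.22 on the log2 scale (adjusted p = 0.249), with 7 of 10 libraries higher in PVT5. *Adcy2* had 116 CPM in PVT5, 91.4 in PVT2 and 14.6 in PVT3. Against PVT2, *Adcy2* (0.18 ± 0.13) and *Cobll1* (0.18 ± 0.16) did not pass edgeR's test, with adjusted p of 0.551 and 0.662. The rule for named genes also took *Cnksr3* (0.87), *Spon1*, an extracellular matrix protein (0.86), the lincRNA *Gm29478* (0.83), *Hs6st3*, a heparan sulfate sulfotransferase (0.74), and *Creg1* (0.67). Being higher in every library was a condition of this rule. Among the lower genes it took *Cpa6*, a carboxypeptidase (-1.34 ± 0.17), *Ryr2*, a calcium release channel of internal stores (-1.18 ± 0.14), *Clmp* (-1.18 ± 0.15) and the tetraspanin *Tspan9* (-1.03 ± 0.17), with being lower in every library as a condition. *Ryr2*, *Clmp* and *Tspan9* were lower than PVT3 and PVT4, while against PVT1 and PVT2 none of the 3 passed the test (adjusted p from 0.291 to 1). *Cpa6* had 17.8 CPM in PVT5 and 20.2 in PVT3 (adjusted p = 0.868).

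Since the rule favoured *Drd3* and, through the PVT1 set, disfavoured *Drd2*, no order among the dopamine receptors is read from these members. *Drd2* stood at 15.4 ± 3.41 CPM in PVT5 against 51.6 ± 16.5 in PVT1, and 134 members (19.6%) had a *Drd2* UMI. *Drd1*, which was below the filter on low counts, had 5.47 ± 5.77 CPM in PVT5 and 22.3 ± 11.9 in PVT3, with UMIs in 36 members (5.27%). *Drd5* had UMIs in 21 members (3.07%) and *Drd4* in 0 of 683, which allows a share of nuclei with a UMI of up to 0.439% by counting error alone and sets no limit on the nuclei that express the gene. After thinning, *Drd2* was counted in 2.93% ± 0.792 of members against 0.258% ± 0.553 of oligodendrocytes, *Drd1* in 1.17% ± 1.23 against 0.231% ± 0.342 and *Drd5* in 0.53% ± 0.56 against 0.13% ± 0.28, so that the spreads of *Drd1* and *Drd5* overlapped with the level of free RNA. Of 12 genes of dopamine receptors and signalling, 5 outside the rule could be tested (*Gnal*, *Pde10a*, *Adcy5*, *Rgs9*, *Pde1b*), and 0 were called, with log2 fold changes from -0.14 to 0.12, beside 2.38% of all genes tested that were called in either direction. Among 17 genes of monoamine uptake, storage, synthesis and breakdown, 3 passed the filter beside the rule gene *Slc22a3*, and 0 were called.

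Calls among receptor genes for other transmitters are given beside the 2.38% called over all genes. Among 18 ionotropic glutamate receptor genes, 16 were tested with a median of 0.08, 1 was higher (*Gria3*) and 0 lower. Of 14 tested GABA receptor genes, 7 metabotropic glutamate receptor genes, 5 serotonin receptor genes and 1 adrenergic receptor gene (*Adra1b*), 0 were called, with medians of 0.12, 0.12, -0.13 and 0.02. *Chrm2*, the M2 muscarinic receptor, was called higher (1 of 4 acetylcholine receptor genes tested, 0.69 ± 0.12), at 129 CPM in PVT5, 228 in PVT2 and 16.7 in PVT3, with 8 of 10 libraries above the average of PVT1 to PVT4. *Glra3*, a glycine receptor subunit, was lower (1 of 5 tested, -0.58 ± 0.16, adjusted p = 0.00819) than the mean, with 17.6 ± 6.59 CPM in PVT5 against 10.2 in PVT1, 18.8 in PVT2, 49.9 in PVT3 and 38.8 in PVT4. In pairs it passed the test against PVT3 and PVT4 and not against PVT1 or PVT2 (adjusted p = 0.0883 and 0.569). *Glra2* was at 0.35 ± 0.09 (adjusted p = 0.00305), under the limit on size. Of 17 peptide and hormone receptor genes tested, *Oprm1*, the mu opioid receptor, was higher (0.51 ± 0.05, adjusted p = 4.21e-12, 10 of 10 libraries) and *Insrr*, the insulin receptor-related receptor, lower than the mean (-0.88 ± 0.26, adjusted p = 0.0165). *Insrr* stood at 4.95 ± 3.40 CPM in PVT5, 38.1 in PVT3 and 17.1 in PVT4. Against PVT2, at 1.08 CPM, it was higher in PVT5 (1.69 ± 0.43, adjusted p = 0.00315), and PVT1 had 3.27 CPM (adjusted p = 0.945). *Oprk1* had -0.17 ± 0.09 and *Hcrtr2*, an orexin receptor, 0.31 ± 0.12, with adjusted p of 0.259 and 0.126. *Hcrtr1* and *Npffr1* were below the filter, at 5.37 ± 3.01 and 6.00 ± 4.75 CPM in PVT5.

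Ion channels and calcium-binding proteins had calls in 3 of the 6 lists, to be read beside the 2.38% called over all genes. Of 19 tested genes of inward rectifier, tandem-pore and calcium- or sodium-activated potassium channels, the tandem-pore channels *Kcnk2* (-1.06 ± 0.12, adjusted p = 2.2e-10) and *Kcnk13* (-1.03 ± 0.16, adjusted p = 6.82e-07) were lower and 0 higher. Of 21 voltage-gated potassium channel genes, *Kcnh8* was lower (-0.57 ± 0.10) and 0 were higher. The 5 T-type calcium and HCN channel genes, 12 high-voltage calcium channel genes and 8 sodium channel genes had 0 calls and medians of 0.14, 0.02 and 0.02. Within them *Cacna1i* was at 0.38 ± 0.11 (adjusted p = 0.0201), and outside them *Kcnk10* was at -0.18 ± 0.07 and *Kcna1* at -0.40 ± 0.16, with adjusted p of 0.0936 and 0.111. *Calb1* (0.04 ± 0.10) and *Calb2* (0.06 ± 0.06), which encode calbindin and calretinin, had adjusted p of 0.923 and 0.663. In the list of 11 tested calcium-binding proteins, *Necab2* was lower (-0.56 ± 0.09). *Pvalb* and *Cacna1h* were below the filter, at 0.972 and 6.09 CPM.

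Of 32 tested thalamic and related transcription factors, 5 were higher and 1 lower (18.8%, beside 2.38% of all genes tested), with a median of 0.14 beside -0.01 for all genes. Besides *Tshz2*, the higher ones included *Etv1*, an ETS factor (0.97 ± 0.09), and *Lef1*, an effector of Wnt signalling (0.64 ± 0.13), and the lower one was *Zfhx4* (-0.52 ± 0.08). *Etv1* had 72.9 ± 27.9 CPM in PVT5, 62.9 ± 12.8 in PVT2 and 19.9 ± 7.82 in PVT3. *Lef1* had 95.5 CPM in PVT5 against 162 in PVT2 and 23.1 in PVT3, and exceeded the average of PVT1 to PVT4 in 7 of 10 libraries. Of 9 tested steroid and nuclear receptors 0 were called.

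Adhesion and guidance lists had calls in both directions, beside the 2.38% called over all genes. Among 18 tested cadherins and protocadherins (16.7% called), *Cdh6* (0.70 ± 0.05) and *Cdh7* (0.64 ± 0.06) were higher and *Cdh8* lower (-1.06 ± 0.12). *Cdh8* was at 65.9 ± 22.3 CPM in PVT5 and 341 ± 106 in PVT2. Of 38 axon guidance genes tested (10.5% called), the netrin receptor *Unc5b* was higher (0.60 ± 0.09), and *Slit2*, a repellent ligand (-1.18 ± 0.27), its receptor *Robo2* (-0.74 ± 0.08) and the semaphorin receptor *Nrp2* (-0.99 ± 0.17) were lower. *Robo2* ranged from 121 to 336 CPM in PVT5 against 247 to 491, and its highest PVT5 value came from male replicate 4. *Slit2* was low, at 6.48 CPM in PVT5, 43.2 in PVT2 and 5.96 in PVT3. Of 26 synaptic organizer genes tested 0 were called. Further calls fell in the collagens (*Col26a1* 0.51, *Col18a1* -0.63, of 6 tested) and the phosphodiesterases (*Pde1a* -0.87, of 15). In a list of neuropeptides that also holds growth factors, the growth factor *Igf1* (0.53) and the neuropeptide *Gal* (-0.67) were called, of 4 tested. *Igf1* exceeded the average CPM of PVT1 to PVT4 in 4 of 10 libraries only, with 40.2 CPM in PVT5, 73.3 in PVT2 and 4.97 in PVT3. The 3 transmitter identity genes, 5 immediate early genes and 6 sex-linked genes tested had 0 calls.

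Because the subtypes are divided differently between the deposited clusters, PVT5 was also set against the other gated nuclei of the same deposited cluster, a comparison chosen after seeing the data. Within Neurons (1), 36 of 7663 genes were higher (0.47%) and 89 lower (1.16%), and within Neurons (2), where 14 sums had enough nuclei against 20 in Neurons (1), 118 of 6906 were higher (1.71%) and 135 lower (1.95%). Of the 97 genes higher than the mean of the subtypes, 86 could be tested within Neurons (1), where 20 were called higher and 11 had the opposite sign, and 68 within Neurons (2), where 47 were called higher and 0 had the opposite sign. Of the 103 lower genes, 32 of 58 tested were called lower within Neurons (1) and 60 of 71 within Neurons (2). Higher against the mean and within both clusters were 12 genes, and lower in all 3 comparisons were 25. *Tshz2* was 0.66 ± 0.06 higher within Neurons (1) and 0.92 ± 0.12 within Neurons (2), *Rgs6* 1.43 ± 0.16 and 1.77 ± 0.18, and *Tenm2* 0.72 ± 0.06 and 1.36 ± 0.08. *Adcy2* was only 0.46 ± 0.09 higher within Neurons (1), under the limit on size, and 2.26 ± 0.23 within Neurons (2). *Cobll1* was 0.57 ± 0.14 higher within Neurons (1). *Mgat4c* stood at -1.81 ± 0.10 and -1.69 ± 0.11, *Cpa6* at -1.76 ± 0.14 and -1.67 ± 0.23, and *Cdh8* at -1.74 ± 0.09 and -1.23 ± 0.14 on the log2 scale. By contrast, *Chrm2* (-0.24 ± 0.08) and *Igf1* (-0.40 ± 0.11) were below 0 within Neurons (1).

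**Figure D5:**
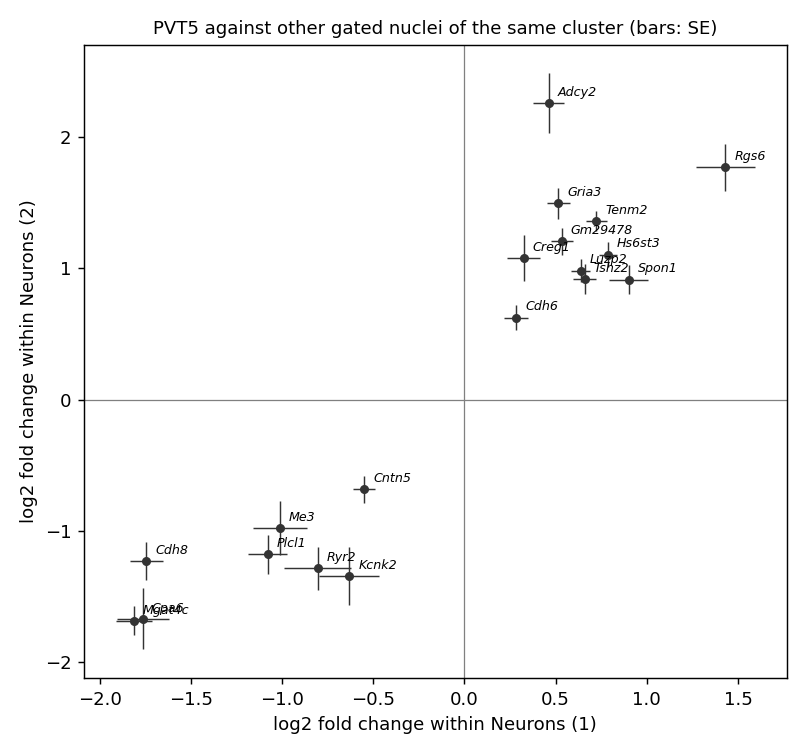
Log2 fold change of PVT5 against the other gated nuclei of the same deposited cluster, in Neurons (1) on the x axis and Neurons (2) on the y axis, bars 1 SE, for those genes of the ranked rises and falls, or called against all 4 subtypes, that could be tested in both. All points shown lie in the upper right or lower left quadrant; *Rgs6* is at 1.43 and 1.77 and *Mgat4c* at -1.81 and -1.69. The genes were picked on these same nuclei, so their shared sign is not independent of that choice. Of all 97 higher genes, 11 of 86 tested within Neurons (1) had the opposite sign.

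The difference between PVT5 and the other subtypes was also compared between male and female libraries by an interaction term. It differed for 1 gene of 8416 (0.0119%) at an adjusted p under 0.05, with 483 at an unadjusted p under 0.05, and DESeq2 called 0, with 407 at an unadjusted p under 0.05. The gene was *Erbb4*, a neuregulin receptor named after its values were seen. In male libraries it stood at 72.5, 24.3, 17.0 and 44.4 CPM in PVT5 (replicates 1 to 4), and in female libraries between 31.1 and 213 CPM with a median of 74.6, so the groups overlapped. Its difference from the other subtypes was -1.14 ± 0.23 in male and 1.07 ± 0.22 in female libraries (interaction -2.22 ± 0.39, adjusted p = 0.00256), and the call was lost without male replicate 3. The 4 genes higher than all subtypes were also fitted within each sex. *Tshz2* was 0.93 ± 0.07 in male and 0.81 ± 0.09 in female libraries, and *Luzp2* 0.72 ± 0.06 and 0.56 ± 0.07. *Palld* (0.94 ± 0.19) and *Megf11* (0.88 ± 0.17) passed the filter in male libraries only. These genes were chosen on the same libraries, so their direction within a sex is not independent of that choice.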

How the data were processed

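The authors made 10x Genomics Chromium 3' libraries of single nuclei. Per the submitters' processing notes, Cell Ranger 6.1.1 and mm10 were used. The authors deposited UMI counts without normalization for 33502 genes and 20503 nuclei, with nuclei of low quality and doublet clusters removed by the authors, and no further doublet caller was run. The percent of mitochondrial UMIs per nucleus was computed and deposited by the authors; mitochondrial genes are at 0 in male nuclei of the matrix, and some symbols are counted under different names in the sexes. Another 21 metadata columns were not used. Of 20457 barcodes, 46 occur in more than 1 library, and 2 of 683 members have such a barcode.

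Members were found by the rule in Python 3.11.15 (numpy 2.4.6). The members, gene lists and comparisons were chosen with earlier results of these data known. Male libraries held between 7568267 and 55956635 UMIs and female libraries between 5119927 and 12891409, of which PVT5 sums held from 167619 to 3560290; all 683 members entered the 50 sums. The fits used edgeR 4.0.16 under R 4.3.3 (filterByExpr, TMM, glmQLFit, glmQLFTest, Benjamini-Hochberg), with library and subtype as terms; 13 of the 22 rule genes passed filterByExpr, and held-out genes stayed in their fit whatever their counts. SEs are the log2 fold change over the square root of F. CPM of genes use TMM-scaled sums, and CPM of marker lists and deposited clusters plain sums. In simulated sums for the comparison of PVT5 with the mean of the other subtypes, 92 of 92 genes changed by 1 and 94 of 94 changed by 2 on the log2 scale were called among 7828 genes, and 0 unchanged genes. The simulation gave each gene the same level in PVT1 to PVT4 and assigned no nuclei. It thus does not cover differences among those subtypes, wrong assignment or changes smaller than 1. Named genes are the 15 largest called rises (at least 20 CPM in PVT5, higher in every library) and 10 largest falls (at least 20 CPM as the mean of the other subtypes, lower in every library), without rule genes, mitochondrial genes or genes under 20 UMIs in gated nuclei of either sex, plus called members of 28 gene lists, including a list of 25 genes the paper discusses, named whether called or not; genes called against all 4 subtypes were named after their values were seen, and some genes are not reported here. Intervals and limits cover counting error only. Shared replicate numbers do not pair the male and female libraries. Alternatives changed the gate, the assignment, the libraries, the filter, the scaling (RLE) and the test (DESeq2 1.42.0). Locations come from GENCODE M21, the same build as the notes name.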

Additional observations from a re-analysis of the deposited data

Results flagged for a closer look

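For named genes, the difference between PVT5 and the mean of the other subtypes was taken in each library on the log2 CPM scale, and 1 library stood far from the rest of its sex in 8 of 130 groups of libraries examined, where chance gives about 1 in 20. Among male libraries the outlying value was the highest for *Luzp2* (0.955) and *Gal* (0.32) and the lowest for *Insrr* (-2.13) and *Kcnk13* (-1.46). Among female libraries it was the highest for *Adcy2* (2.33) and *Me3* (0.0823) and the lowest for *Oprk1* (-1.10) and *Calb2* (-0.743). The difference of *Erbb4* between PVT5 and the other subtypes varied with sex by -2.22 (log2, male minus female) in edgeR's interaction test.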

How the results depend on the processing

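The held-out differences of *Drd3*, *Slc22a3* and *1700047F07Rik* kept their direction and their call under all 20 alternatives run for each, with log2 fold changes of 0.86 to 0.95, 1.31 to 1.55 and 1.87 to 2.13 when 1 library was left out. The counts of 97 higher and 103 lower genes became 157 and 189 with members that had UMIs of at least 2 PVT5 markers. Thinning to 3000 UMIs for the gate and the scores alone left 169 members and 40 sums and gave 25 and 14. In that setting 1 of 68 higher and 8 of 69 lower genes still tested turned in sign. The counts were 151 and 165 in male and 61 and 52 in female libraries, and 174 and 202 without the filter on low counts. A margin of at least 0.5 z gave 154 higher genes, only Neurons (1) gave 36 (11 of 86 higher genes still tested turned in sign), and summing all other gated nuclei together gave 161 lower genes (2 of 93 higher genes turned). DESeq2 called 89 and 91, and RLE scaling 91 and 108. Leaving out 1 library gave 75 to 105 higher and 78 to 134 lower genes. The cause of these shifts was not tested. The 2-marker, own-marker and single-cluster settings were chosen after seeing the data.

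With no replicate block (sex in place of library) 75 genes were higher and 62 lower. No label ties libraries of the sexes that share a number, so setting them in 4 pairs for the share of PVT5 is arbitrary. With these pairs as a replicate block, the male library was higher in 4 of 4, by 2.62 points on average (exact two-sided permutation p = 0.125, the smallest that 4 pairs allow). No conclusion is drawn from it. The unpaired difference of 2.68 points was -0.595 after thinning (exact permutation p = 0.862) and 3.67 without male replicate 1 (exact permutation p = 0.0476), with 1.65 to 3.67 when any library was left out. The share of 17.9% was 8.41% with 2 markers and 11.2% after thinning, and 17.4% to 18.3% when 1 library was left out. The 1 gene whose difference varied with sex became 0 with DESeq2 and 0 to 1 when 1 library was left out.

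The 20 to 70 members of each library other than male replicates 3 and 4 limit what genes of low count can show, and 29.6% of members rest on a single marker UMI.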

Other observations

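Genes that passed the thresholds within both Neurons (1) and Neurons (2), 13 higher and 37 lower in PVT5, include some outside the rule for named genes, picked here after their values were seen. *Elmo1*, which takes part in Rac activation, was 0.55 ± 0.04 higher on the log2 scale within Neurons (1) and 0.51 ± 0.08 within Neurons (2), and at 0.49 against the mean of the other subtypes it was just under the limit of 0.5. *Mlip* was 0.59 ± 0.09 and 0.73 ± 0.16 higher. Among the lower genes, *Gpc5*, a glypican of the cell surface, stood at -1.24 ± 0.08 and -0.96 ± 0.14, *Fign*, a microtubule-severing ATPase, at -1.32 ± 0.12 and -1.03 ± 0.21, *Pam*, the enzyme that amidates neuropeptides, at -1.08 ± 0.12 and -0.57 ± 0.14, and *Rbms3*, an RNA-binding protein, at -0.85 ± 0.10 and -1.11 ± 0.13. The glycosyltransferases *Galntl6* and *Galnt18*, which start O-glycans, stood at -1.11 ± 0.11 and -0.66 ± 0.10 within Neurons (1) and at -0.54 ± 0.13 and -1.38 ± 0.15 within Neurons (2). *Sema6d* (-0.51 ± 0.05 and -0.80 ± 0.10) and *Kcnmb2* (-0.65 ± 0.09 and -1.04 ± 0.21) were lower within both clusters but stood at 0.02 and -0.17 against the mean of the other subtypes, with edgeR adjusted p of 0.93 and 0.285.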
